A study of Mus musculus with 9 samples.

Results

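The genes described here encode the parts with which basal epithelial cells hold on to the sheet of matrix beneath them: the laminin-332 chains Lama3 and Lamb3, the integrin chains Itga6, Itgb4, Itga3, Itga2 and Itgb1, and the linker proteins Dst and Plec. They were chosen by name as hemidesmosome and laminin-332 adhesion genes. All 9 of them had at least 1 probe set annotated to that symbol alone, out of 18194 genes tested. They were measured on 9 arrays in 3 groups of 3: ZsG plus, ZsG minus mTEC and ZsG minus cTEC, where mTEC and cTEC are the usual abbreviations for medullary and cortical thymic epithelial cells. The labels give a C57BL/6 background to all 3 groups and describe a bacterial artificial chromosome that carries the reporter ZsG, a green fluorescent protein, at the start codon of Tslp, the gene of an epithelial cytokine. Animals were 8 to 20 weeks old. Neither the gates of the sort nor the origin of ZsG plus cells, cortex or medulla, is stated in the labels. The cell type field reads keratinocytes for every sample, so the groups follow the titles. Whether each replicate is a different animal is not stated in the labels. The p-values therefore measure the spread among these samples alone, which may be technical.

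A hemidesmosome is a plaque at the base of an epithelial cell. Its receptor is the integrin made of the Itga6 and Itgb4 chains, which binds laminin-332 outside the cell and is tied by plectin and by the epithelial form of dystonin to keratin filaments inside. Laminin-332 also binds the integrin of the Itga3 and Itgb1 chains, and Itgb1 pairs with many further alpha chains, so it serves fibroblasts and blood cells as well as epithelium. The medulla of the thymus holds keratin-rich cells that resemble those of stratified epithelium, while cortical epithelium forms an open net around developing thymocytes.

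None of the 9 genes passed the threshold in any comparison. By the brightest probe sets, 4 of them stood lower on every ZsG minus mTEC array than on every ZsG minus cTEC array. Of all genes 11.8% did, and 1 of the 9, Plec, stood higher, where 16.6% of all genes did. Of the 4, Lama3 had a second probe set separated the other way, and Itgb1 was below 0 in 3 of 6 probe sets. Against ZsG minus cTEC, 3 of the 9 stood lower on every ZsG plus array, where 13.4% of all genes did. All 3 were among the 4 lower in ZsG minus mTEC. The share of all genes lower in both comparisons was not computed, and both use the same ZsG minus cTEC arrays. These 3 were the laminin chain gene Lamb3, the integrin gene Itgb1 and the dystonin gene Dst. No gene of the 9 was separated between ZsG plus and ZsG minus mTEC. Itgb4 had its lowest level in ZsG plus, Plec stood higher in both other groups than in ZsG minus cTEC, and Itga6 was bright in all 3 groups with close levels. In bulk samples such as these, fewer cells of a type and less RNA per cell cannot be told apart.

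Groups were compared on log2 intensity with limma, a linear model that shares information on the spread between genes, with Benjamini-Hochberg adjustment over all 18194 genes and a threshold of 0.05. For ZsG plus against ZsG minus mTEC, 0 of the 9 genes passed, where 0.22% of all genes did (0.0165% as higher, 0.203% as lower). With an unadjusted p under 0.05, 0 were higher and 1 was lower there, where 3.2% of all genes were higher and 10.2% lower. For ZsG plus against ZsG minus cTEC, 0 of 9 passed, where 1.74% of all genes did (0.599% as higher, 1.14% as lower). Here 0 were higher and 4 lower with an unadjusted p under 0.05, where 7.44% of all genes were higher and 11.3% lower. For ZsG minus mTEC against ZsG minus cTEC, 0 of 9 passed, where 0.627% of all genes did (0.528% as higher, 0.0989% as lower). At an unadjusted p under 0.05, 0 were higher and 1 lower, where 8.4% of all genes were higher and 3.9% lower. The comparisons share groups, so a low or high reading in one group enters 2 of them.

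Intensities had been scaled by the authors to a common trimmed mean of 1250. Replicates of ZsG plus were the least alike: over all genes the median SD of log2 intensity was 1.30 for ZsG plus, 0.63 for ZsG minus mTEC and 0.61 for ZsG minus cTEC. For the 9 genes it was 0.88 for ZsG plus, 0.42 for ZsG minus mTEC and 0.42 for ZsG minus cTEC. Median intensity over all probe sets was 230 to 316 in ZsG plus and 366 to 424 on the other 6. The 6 probe sets for PheX and DapX, bacterial genes that mouse cells lack, read 3.77 to 341 over all arrays. These serve here as a guide to dim signal, since no detection calls were analysed. Gapdh read at its 3′ end over its 5′ end, a measure that rises as RNA or its copies shorten, was 6.71 to 10.6 for ZsG plus and 4.55 to 5.97 for the other 6 arrays. The part of the wider spread and the higher Gapdh measure of ZsG plus in the results was not tested.

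**Figure D1:**
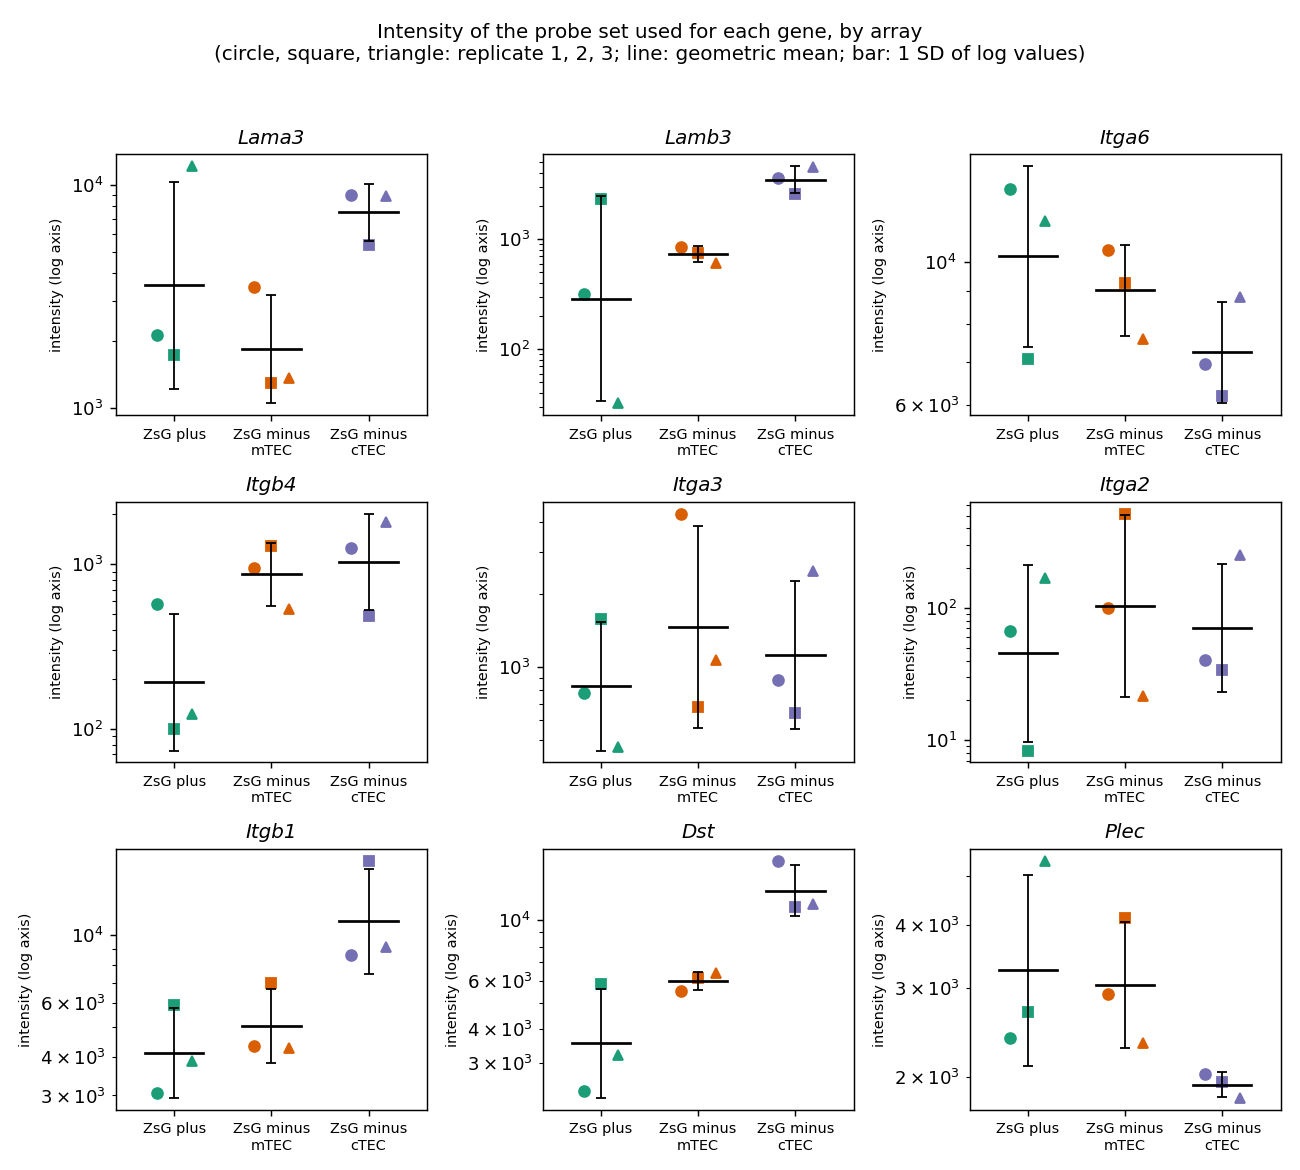
Intensity on a log axis for the probe set used for each of the 9 genes, with 1 point per array, grouped as ZsG plus, ZsG minus mTEC and ZsG minus cTEC; the line is the geometric mean and the bar 1 SD of the log values. Lamb3, Itgb1 and Dst are higher on all 3 ZsG minus cTEC arrays than on the other 6, and Lamb3 spans 32.2 to 2344 within ZsG plus.

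Of the laminin chains, Lamb3 encodes the beta chain found in laminin-332. It read 319, 2344 and 32.2 in the ZsG plus replicates, 858, 745 and 612 in the ZsG minus mTEC replicates, and 3606, 2575 and 4533 in the ZsG minus cTEC replicates. Every ZsG minus cTEC array was above the other 6, but ZsG plus replicate 2 came close to the lowest of them, and ZsG plus replicate 3 lay below the brightest bacterial control on its array. The log2 difference was −3.59 ± 1.28 (SE, n = 3 arrays per group) for ZsG plus against ZsG minus cTEC, with a limma adjusted p of 0.178. Without ZsG plus replicate 2 it was −5.10, and the limma adjusted p was 0.0293. Over all genes, 317 were called in this comparison in the main fit, and from 0 to 735 on leaving out 1 array. For ZsG minus mTEC against ZsG minus cTEC the log2 difference of Lamb3 was −2.25 ± 1.28 (limma adjusted p = 0.553). The fit has 1 estimate of the spread for all 9 arrays, and the highest Lamb3 reading was 72.8-fold over the lowest within ZsG plus, 1.40-fold within ZsG minus mTEC and 1.76-fold within ZsG minus cTEC. In a limma fit of the 6 ZsG minus arrays alone the difference between their 2 groups had an adjusted p of 0.0416. The count of all genes called between those groups, 114 in the main fit, ran from 0 to 304 on leaving out 1 array and from 0 to 1220 over all alternatives. Calls of Lamb3 under changed settings are therefore not read as particular to Lamb3. Lamb3 had 1 probe set, so no second reading of it exists here.

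Lama3 encodes the alpha chain, which carries the part of laminin-332 that integrins bind. Its brightest probe set read 2127, 1722 and 12093 in the ZsG plus replicates, 3478, 1291 and 1365 in the ZsG minus mTEC replicates, and 8980, 5366 and 8875 in the ZsG minus cTEC replicates. ZsG plus replicate 3 was the highest of all 9, and the other 2 ZsG plus arrays lay within the ZsG minus mTEC range. ZsG minus mTEC was separated from ZsG minus cTEC, with a log2 difference of −2.04 ± 0.83 (limma adjusted p = 0.349). The second probe set of Lama3 went the other way: it read 419, 828 and 905 in the ZsG minus mTEC replicates and 322, 372 and 244 in the ZsG minus cTEC replicates, a difference of 1.14 ± 0.94. That probe set read 73.7, 25.4 and 398 in the ZsG plus replicates, the first 2 below the brightest bacterial control on their arrays, and all 3 below every ZsG minus mTEC array (limma adjusted p = 0.237), where the brightest probe set gave 0.95 ± 0.83 (limma adjusted p = 0.634). The direction of Lama3 between ZsG minus mTEC and ZsG minus cTEC, where all readings of both probe sets were above those controls, is therefore not settled.

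The receptor of the hemidesmosome is a pair of chains, and their levels ran in different orders over the groups. Itga6, the alpha chain, read 12954, 7063 and 11553 in the ZsG plus replicates, 10442, 9280 and 7581 in the ZsG minus mTEC replicates, and 6934, 6184 and 8824 in the ZsG minus cTEC replicates. All 9 arrays lay well above the bacterial controls, the 3 ranges overlapped, and the groups ordered as ZsG plus, ZsG minus mTEC, ZsG minus cTEC with overlapping arrays between neighbours in that order; with quantile normalization the first 2 changed places. The log2 difference between ZsG plus and ZsG minus cTEC was 0.49, with a 95% interval of −0.67 to 1.66. Its other probe set gave 0.21 for the same comparison, with a standard error of 0.77.

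Itgb4 encodes the beta chain, whose long tail inside the cell recruits plectin. It read 570, 100.1 and 123 in the ZsG plus replicates, 940, 1288 and 535 in the ZsG minus mTEC replicates, and 1257, 486 and 1792 in the ZsG minus cTEC replicates. ZsG plus replicates 2 and 3 were the lowest of the 9 and lay below the brightest bacterial control on their arrays, while replicate 1 lay inside the range of both other groups. Itgb4 had log2 differences of −2.18 ± 0.83 against ZsG minus mTEC (limma adjusted p = 0.314) and −2.43 ± 0.83 against ZsG minus cTEC (limma adjusted p = 0.166). The 95% intervals of the log2 difference were −4.04 to −0.31 and −4.30 to −0.57. Itgb4 differed by −0.25 ± 0.83 between ZsG minus mTEC and ZsG minus cTEC, and the arrays of both groups overlapped throughout. Itgb4 also had 1 probe set.

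Itgb1, the beta chain shared by most matrix-binding integrins, was measured by 6 probe sets. The brightest read 3052, 5927 and 3874 in the ZsG plus replicates, 4334, 6962 and 4297 in the ZsG minus mTEC replicates, and 8584, 17456 and 9140 in the ZsG minus cTEC replicates. ZsG plus and ZsG minus mTEC overlapped, and both lay wholly below ZsG minus cTEC. The log2 difference was −1.43 ± 0.57 for ZsG plus against ZsG minus cTEC (limma adjusted p = 0.221) and −1.13 ± 0.57 for ZsG minus mTEC against ZsG minus cTEC (limma adjusted p = 0.478). In the first of these comparisons 5 of the 6 probe sets had a value below 0, with 4 of them separated, and in the second 3 of 6 had a value below 0, all 3 separated. The probe set with the opposite sign in the first comparison read 0.58 to 50.6 over all arrays, each below the highest control reading of 341. Of the 4 separated probe sets, 1 was also dim: it read 120.4, 195 and 28.5 in the ZsG plus replicates, each below the brightest bacterial control on its array. In ZsG plus replicate 3 a further one read 235 and another 233, also below that control, so only the brightest was clear of it throughout. Another of the 5, not separated, read 242, 314 and 6.996 in the ZsG plus replicates, below that control on 2 of 3 arrays. All 6 probe sets had values below 0, from −2.31 to −0.30, in ZsG plus against ZsG minus mTEC, and 2 were separated, but the brightest gave 0.33 once arrays were centred on their median. The 2 were the dim one at 120.4, 195 and 28.5 and the one that read 235 in ZsG plus replicate 3.

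Itga3 encodes the alpha chain that makes the other laminin-332 receptor with Itgb1. Its brightest probe set read 781, 1574 and 465 in the ZsG plus replicates, 4315, 680 and 1070 in the ZsG minus mTEC replicates, and 878, 645 and 2484 in the ZsG minus cTEC replicates. The groups overlapped throughout, and the high mean of ZsG minus mTEC came from replicate 1. The 3 probe sets of Itga3 differed in sign between ZsG plus and ZsG minus cTEC, from −0.43 to 1.42 on the log2 scale, with limma adjusted p-values of 0.296 or more. One of them read 1126, 1332 and 1018 in the ZsG minus mTEC replicates and 324, 508 and 759 in the ZsG minus cTEC replicates, without overlap. Itga2, the alpha chain of a collagen receptor that is also found on platelets, read 66.7, 8.33 and 168 in the ZsG plus replicates, 99.7, 518 and 21.4 in the ZsG minus mTEC replicates, and 40.6, 33.8 and 253 in the ZsG minus cTEC replicates. Only 2 of these 9 readings were above the brightest bacterial control on their array, so no difference in Itga2 could be measured.

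Dst encodes dystonin, a giant linker whose epithelial form is the plaque protein BP230 and whose other forms serve neurons and muscle. Its brightest probe set read 2371, 5839 and 3233 in the ZsG plus replicates, 5522, 6138 and 6403 in the ZsG minus mTEC replicates, and 16406, 11125 and 11468 in the ZsG minus cTEC replicates. Every ZsG minus cTEC array was above every other array and 2 of the 3 ZsG plus arrays were the lowest of all 9. The log2 difference was −1.85 ± 0.55 for ZsG plus against ZsG minus cTEC (limma adjusted p = 0.123), with a 95% interval of −3.08 to −0.62. For ZsG minus mTEC against ZsG minus cTEC it was −1.09 ± 0.55 (limma adjusted p = 0.478). Dst in ZsG plus differed from ZsG minus mTEC by −0.76 ± 0.55 (limma adjusted p = 0.564).

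The other probe sets of Dst had the same sign as the brightest in all 3 comparisons. Against ZsG minus cTEC all 4 were lower on every ZsG plus array, with log2 differences from −3.43 to −1.85, and the lowest of their limma p-values, adjusted over all probe sets, was 0.085. The probe set at −3.43 read 106, 1286 and 117 in the ZsG plus replicates, below the brightest bacterial control on its array in replicates 1 and 3. Another read 771, 1012 and 153 there, below that control in replicate 3. Against ZsG minus cTEC 3 of the 4 were lower on every ZsG minus mTEC array, with differences of the 4 from −2.55 to −0.86. With the mean of its probe sets in place of the brightest, Dst differed by −2.82 between ZsG plus and ZsG minus cTEC with a limma adjusted p of 0.0463. That mean takes in the dim readings. With all values under 100 set to 100, its difference stayed at −1.85 and the limma adjusted p was 0.0321. Over all genes, 317 were called in this comparison in the main fit, and from 0 to 862 over all alternatives. Calls of Dst under changed settings are therefore not read as particular to Dst.

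Plec, the gene of plectin, which ties keratin to the Itgb4 tail, ran opposite to Dst. It read 2387, 2688 and 5357 in the ZsG plus replicates, 2917, 4133 and 2332 in the ZsG minus mTEC replicates, and 2026, 1954 and 1815 in the ZsG minus cTEC replicates. The ZsG minus cTEC arrays lay close together and below the other 6. Plec had log2 differences of 0.75 ± 0.55 for ZsG plus (limma adjusted p = 0.494) and 0.66 ± 0.55 for ZsG minus mTEC (limma adjusted p = 0.757), both against ZsG minus cTEC. Of its other 2 probe sets 1 read 1402, 966 and 1701 in the ZsG plus replicates, 1626, 1452 and 1468 in the ZsG minus mTEC replicates and 1388, 1160 and 1565 in the ZsG minus cTEC replicates, with overlap throughout. The other read 4869, 4730 and 908 in the ZsG plus replicates, 2017, 1216 and 832 in the ZsG minus mTEC replicates, and 1239, 1097 and 1085 in the ZsG minus cTEC replicates, with ZsG plus replicate 3 below all ZsG minus cTEC arrays. The separation was thus seen in 1 of 3 probe sets. A further probe set annotated to Plec and to Parp10 together was not used.

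**Figure D2:**
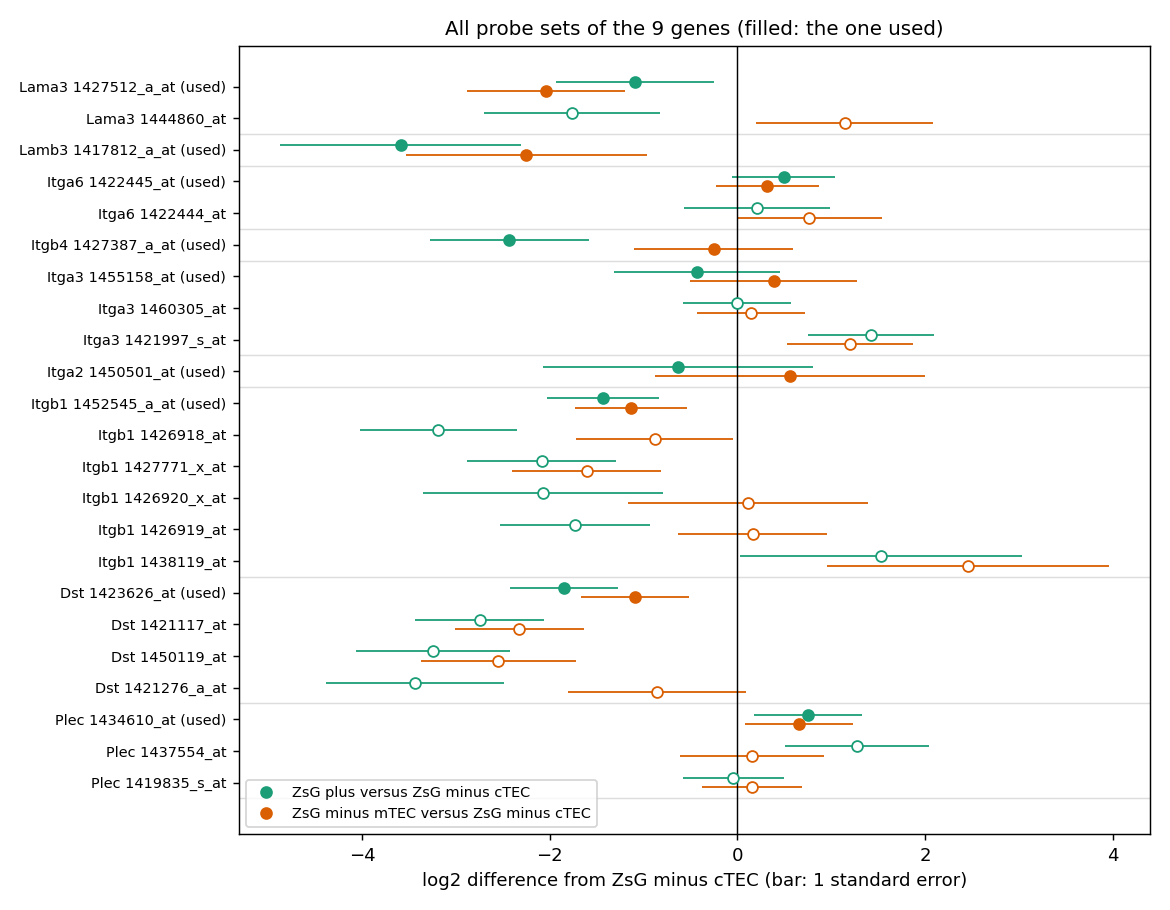
Log2 difference from ZsG minus cTEC, with a bar of 1 standard error, for each of the 23 probe sets of the 9 genes; green is ZsG plus, orange ZsG minus mTEC, and filled points mark the probe set used. All 4 Dst probe sets lie left of 0 for both groups, and the 2 probe sets of Lama3 lie on opposite sides of 0 for ZsG minus mTEC.

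Counted by separation, 3 of the 9 genes were lower on every ZsG plus array than on every ZsG minus cTEC array, where 13.4% of all genes were, and 1 was higher, where 9.9% were. In ZsG minus mTEC against ZsG minus cTEC, 4 were lower, where 11.8% of all genes were, and 1 was higher, where 16.6% were. In ZsG plus against ZsG minus mTEC, 0 were separated, where 12.3% of all genes were lower and 5.77% higher. The median log2 difference of the 9 genes was −0.76 for ZsG plus against ZsG minus mTEC, against −0.33 over all genes. It was −1.09 between ZsG plus and ZsG minus cTEC, against −0.14 over all genes, and −0.25 between ZsG minus mTEC and ZsG minus cTEC, against 0.09 over all genes. With so few genes these medians are descriptions of this list alone.

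**Figure D3:**
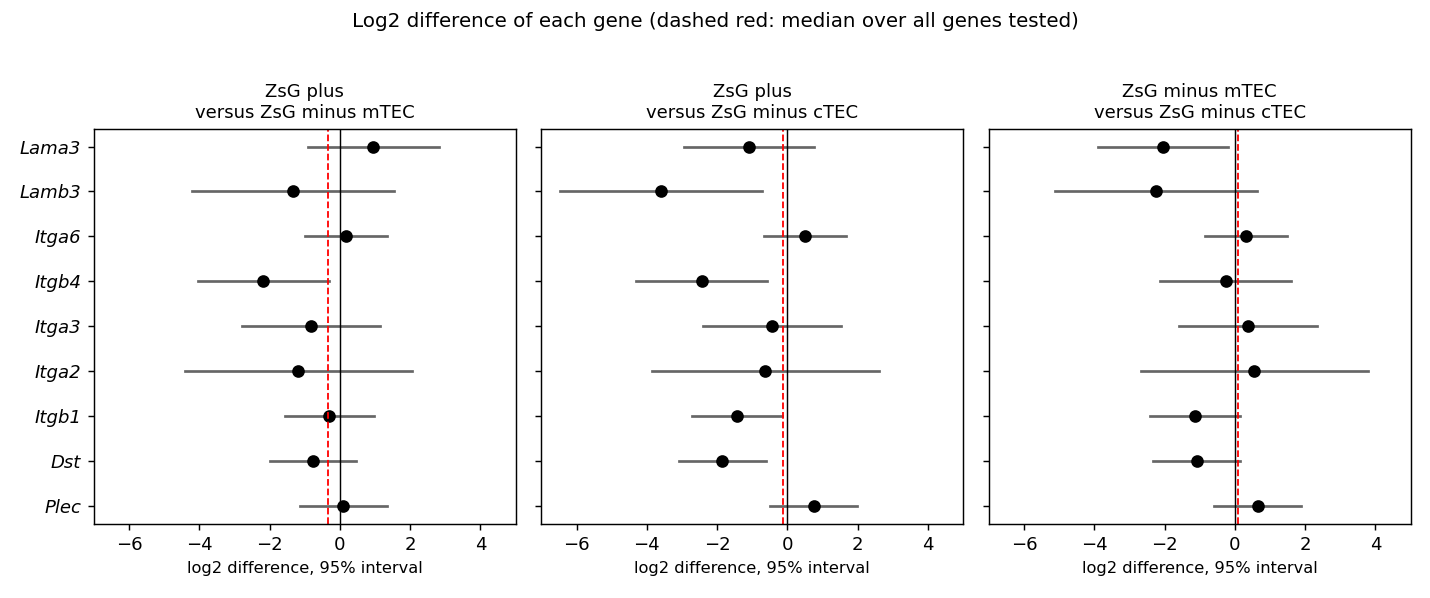
Log2 difference of each of the 9 genes with its 95% interval from the limma fit, for the 3 comparisons; the dashed red line is the median over all genes tested. Intervals of Lamb3, Itgb4, Itgb1 and Dst lie below 0 for ZsG plus against ZsG minus cTEC, that of Itgb4 also for ZsG plus against ZsG minus mTEC, and that of Lama3 for ZsG minus mTEC against ZsG minus cTEC.

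Within ZsG plus, no 1 replicate was highest or lowest throughout. Replicate 2 held the highest reading of Lamb3, Itgb1, Dst and Itga3 and the lowest of Itga6, Itgb4, Lama3 and Itga2. Replicate 1 held the highest reading of Itga6 and Itgb4 and the lowest of Itgb1, Dst and Plec. Replicate 3 held the highest reading of Lama3, Itga2 and Plec, and the lowest of Lamb3 and Itga3. The highest reading was over the lowest by 7.02-fold for Lama3 and 5.70-fold for Itgb4 within ZsG plus. The same ratios were 2.69-fold and 2.41-fold within ZsG minus mTEC, and 1.67-fold and 3.69-fold within ZsG minus cTEC. The laminin chain genes Lama3 and Lamb3 therefore stood in opposite order on ZsG plus replicates 2 and 3.

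The 3 genes lower on every array of both other groups than of ZsG minus cTEC all have a promoter window in RefSeq, build GRCm38.p6, of 250 bases before to 50 after a transcript start. They are shown because these genes share that separation. Windows of 5 of the 9 genes were used here, and Lama3 was not among these 5, so the count is not one of availability. For Lamb3, 1 of its 2 windows is given. The windows were searched on both strands for GGGCGG, the GC box bound by Sp1, for TGANTCA, the AP-1 site, and for TATAAA, the TATA box. Capitals mark the GC boxes, the only one of the 3 motifs found in these 4 windows. The first line is Dst at chr1:34011345-34011644, plus strand, the second Dst at a later start, chr1:34160010-34160309, plus strand, the third Lamb3 at chr1:193301744-193302043, plus strand, and the fourth Itgb1 at chr8:128685404-128685703, plus strand.
Dst upstream start: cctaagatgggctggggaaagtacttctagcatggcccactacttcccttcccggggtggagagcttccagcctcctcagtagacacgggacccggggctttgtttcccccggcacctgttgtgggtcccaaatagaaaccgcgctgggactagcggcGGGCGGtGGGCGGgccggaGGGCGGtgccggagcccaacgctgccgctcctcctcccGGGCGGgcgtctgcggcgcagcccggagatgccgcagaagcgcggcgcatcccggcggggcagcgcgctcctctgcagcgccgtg
Dst later start: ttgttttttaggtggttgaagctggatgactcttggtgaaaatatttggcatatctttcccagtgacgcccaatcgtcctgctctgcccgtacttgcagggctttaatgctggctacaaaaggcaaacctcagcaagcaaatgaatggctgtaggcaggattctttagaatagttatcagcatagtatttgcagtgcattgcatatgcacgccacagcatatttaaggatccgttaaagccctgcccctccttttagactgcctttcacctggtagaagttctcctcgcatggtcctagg
Lamb3: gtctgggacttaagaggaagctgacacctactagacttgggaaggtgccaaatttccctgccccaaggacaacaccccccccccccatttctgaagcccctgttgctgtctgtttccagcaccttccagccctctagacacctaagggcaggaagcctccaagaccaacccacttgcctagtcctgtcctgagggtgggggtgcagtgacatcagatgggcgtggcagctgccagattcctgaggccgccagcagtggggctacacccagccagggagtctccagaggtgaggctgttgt
Itgb1: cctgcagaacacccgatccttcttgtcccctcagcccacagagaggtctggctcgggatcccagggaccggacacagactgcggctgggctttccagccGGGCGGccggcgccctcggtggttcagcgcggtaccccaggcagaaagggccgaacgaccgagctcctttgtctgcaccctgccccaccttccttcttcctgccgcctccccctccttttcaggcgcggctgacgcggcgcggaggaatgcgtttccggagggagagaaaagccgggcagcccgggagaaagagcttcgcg
The upstream Dst window held 4 GC boxes and a G and C content of 70.3%, the later Dst window held 0 at 46.0%, Lamb3 held 0 at 59.3% and Itgb1 held 1 at 67.3%. Over all 32851 windows of this length 35.7% held a GC box, 7.81% an AP-1 site and 13.6% a TATA box. Of the genes without that separation, Itga3 held 3 GC boxes at 66.7% in 1 window. Its other window held 1 GC box and 1 AP-1 site at 52.3%. Itga2 held 1 GC box at 59.3%. GC boxes were thus not particular to the 3 genes shown, and these matches describe letters only.

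Among other genes of the same structures, none of the 5 measured genes of the hemidesmosome list passed the threshold in any comparison. With an unadjusted p under 0.05 there were 0 between ZsG plus and ZsG minus mTEC, where 3.2% of all genes were higher and 10.2% lower. There were 0 between ZsG plus and ZsG minus cTEC, where 7.44% were higher and 11.3% lower. Between ZsG minus mTEC and ZsG minus cTEC 1 was higher, where 8.4% of all genes were higher and 3.9% lower. That gene, singled out after its values were seen, was Col17a1, the collagen that spans the membrane in hemidesmosomes. It read 982, 1309 and 2372 in the ZsG plus replicates, 2589, 1623 and 3000 in the ZsG minus mTEC replicates, and 494, 669 and 1529 in the ZsG minus cTEC replicates. ZsG minus mTEC lay above ZsG minus cTEC without overlap, by 1.55 ± 0.64 on the log2 scale (limma adjusted p = 0.367), the opposite sign to Lamb3 and Dst. Krt5, a basal keratin to which the plaque is anchored, read 37598, 20339 and 6483 in the ZsG plus replicates, 10699, 17448 and 12145 in the ZsG minus mTEC replicates, and 13175, 11465 and 15922 in the ZsG minus cTEC replicates. Its partner Krt14 read 9332, 4428 and 206 in the ZsG plus replicates, 6138, 8576 and 8497 in the ZsG minus mTEC replicates and 2965, 1953 and 2305 in the ZsG minus cTEC replicates. ZsG plus replicate 3 was lowest for both keratins, as it was for Lamb3.

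Of 12 further integrin genes outside the leukocyte set, 1, Itgb8, rose in ZsG plus relative to ZsG minus cTEC, where 0.599% of all genes did. Itgb8, a partner of the alpha-v chain in the activation of TGF-beta, read 1887, 1800 and 8917 in the ZsG plus replicates, 1787, 1686 and 3215 in the ZsG minus mTEC replicates, and 210, 349 and 141 in the ZsG minus cTEC replicates. Both other groups were separated from ZsG minus cTEC and overlapped each other. The log2 difference was 3.84 ± 0.75 for ZsG plus against ZsG minus cTEC (limma adjusted p = 0.0423). It was 3.29 ± 0.75 for ZsG minus mTEC against ZsG minus cTEC (limma adjusted p = 0.097). The call for ZsG plus was lost in a fit of 6 arrays, with array weights, with the replicate number as a block and on leaving out any 1 ZsG minus array, where the limma adjusted p ran from 0.0774 to 0.157. ZsG plus against ZsG minus cTEC was also simulated, with the spread of each group kept apart. There the fit called unchanged genes more often than its threshold allows, which may bear on every call against ZsG plus. Itgav, that alpha-v chain, had a level of 9545 for ZsG plus, 11143 for ZsG minus mTEC and 10438 for ZsG minus cTEC. Itga4, an alpha chain of lymphocytes and other cells, had a level of 1037 for ZsG plus, 540.3 for ZsG minus mTEC and 3375 for ZsG minus cTEC. No other integrin gene of this list passed the threshold. The median log2 difference of the 12 was −0.95 for ZsG plus against ZsG minus mTEC, where that of all genes was −0.33. It was −1.37 between ZsG plus and ZsG minus cTEC, against −0.14 over all genes. Between ZsG minus mTEC and ZsG minus cTEC it was 0.14, against 0.09 over all genes. Against ZsG minus cTEC, 2 were higher and 3 lower on every ZsG plus array, where 9.9% and 13.4% of all genes were. On every ZsG minus mTEC array 3 were higher and 2 lower, where 16.6% and 11.8% were.

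None of the 20 other laminin and basement membrane genes, the 12 linker genes of focal adhesions and the 5 other plakins passed the threshold in any comparison. Of the 20 basement membrane genes, 7 were lower and 1 higher on every ZsG plus array than on every ZsG minus cTEC array, where 13.4% of all genes were lower and 9.9% higher, with a median log2 difference of −0.95. In ZsG minus mTEC against ZsG minus cTEC 5 of them were lower and 0 higher, where 11.8% of all genes were lower and 16.6% higher. Lamb1, the beta chain of more widespread laminins, read 4239, 1781 and 1688 in the ZsG plus replicates, 4262, 5022 and 2245 in the ZsG minus mTEC replicates, and 10247, 6264 and 7174 in the ZsG minus cTEC replicates, the same order of groups as Itgb1. Col4a1, a chain of basement membrane collagen, had a level of 4304 for ZsG plus, 10970 for ZsG minus mTEC and 7045 for ZsG minus cTEC. Of the 12 linker genes, 6 were lower and 0 higher on every ZsG plus array than on every ZsG minus cTEC array, beside the same 13.4% and 9.9% of all genes. In ZsG minus mTEC against ZsG minus cTEC 6 were lower and 1 higher, beside 11.8% and 16.6% of all genes. Lims1, a partner of integrin-linked kinase, had a level of 6351 for ZsG plus, 8809 for ZsG minus mTEC and 5388 for ZsG minus cTEC. The adaptor gene Pxn had a level of 3380 for ZsG plus, 5298 for ZsG minus mTEC and 5820 for ZsG minus cTEC. Of the other plakins, Dsp, the desmosome linker, had a level of 87507 for ZsG plus, 47299 for ZsG minus mTEC and 41401 for ZsG minus cTEC. Eppk1, the epiplakin gene, had a level of 15995 for ZsG plus, 15029 for ZsG minus mTEC and 7955 for ZsG minus cTEC. Dsp was higher on every ZsG plus array than on any other, by 1.08 ± 0.50 on the log2 scale against ZsG minus cTEC (limma adjusted p = 0.286). Dsp overlapped between ZsG minus mTEC and ZsG minus cTEC. Macf1, a linker of actin and microtubules, had a level of 3315 for ZsG plus, 5730 for ZsG minus mTEC and 4688 for ZsG minus cTEC, so the plakins had no 1 order of groups.

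Markers of other cells differed between the same groups. The summed intensity of 8 fibroblast markers was 5227 to 26520 for ZsG plus, 6354 to 10160 for ZsG minus mTEC and 38190 to 60350 for ZsG minus cTEC. For 7 thymocyte markers it was 3032 to 7003 for ZsG plus, 4290 to 8317 for ZsG minus mTEC and 37150 to 53280 for ZsG minus cTEC. For 4 mesothelial markers it was 3572 to 9739 for ZsG plus, 4669 to 6786 for ZsG minus mTEC and 7600 to 14520 for ZsG minus cTEC. Of the 4, Upk3b fell in ZsG plus against both ZsG minus mTEC (limma adjusted p = 0.0409) and ZsG minus cTEC (limma adjusted p = 0.00781), and the other 3 did not pass the threshold in any comparison. Between ZsG plus and ZsG minus mTEC, 0 genes were called in a fit of 6 arrays or with array weights. The same held with the replicate number as a block and on leaving out any 1 ZsG minus mTEC array. The Upk3b call between those groups was thus lost in each. Upk3b read 53.6, 22.7 and 23.0 in the ZsG plus replicates, 445, 1164 and 597 in the ZsG minus mTEC replicates, and 8152, 4656 and 8631 in the ZsG minus cTEC replicates, while Msln, the brightest of the 4 in ZsG plus, overlapped between all groups. Each ZsG plus reading of Upk3b lay below the brightest bacterial control on its array. No marker read 0 on any array. Against ZsG minus cTEC, 1 of the 8 fibroblast markers and 2 of the 7 thymocyte markers fell in ZsG plus and 0 rose, while 1 and 1 fell in ZsG minus mTEC and 0 rose. Of all genes 1.14% fell and 0.599% rose in ZsG plus, and 0.0989% fell and 0.528% rose in ZsG minus mTEC. The ZsG minus cTEC arrays, on which Lamb3, Itgb1, Dst and the brightest Lama3 probe set were high, were thus also those with the highest fibroblast and thymocyte signal, and the part of those cells in the values of the 9 genes was not tested. The sums of 8 endothelial markers were 1568 to 5369 for ZsG plus, 2213 to 2929 for ZsG minus mTEC and 2943 to 3372 for ZsG minus cTEC. Those of 8 dendritic cell and macrophage markers were 30770 to 99160 for ZsG plus, 38250 to 53560 for ZsG minus mTEC and 17400 to 46130 for ZsG minus cTEC. The 8 had no 1 direction. Lyz2, the brightest, was higher on every ZsG minus mTEC array than on every ZsG minus cTEC array, where 16.6% of all genes were. Itgax and Itgb2 were lower, where 11.8% of all genes were. In ZsG plus against ZsG minus cTEC 1 was higher, Itgam, and 1 lower, Itgb2, where 9.9% and 13.4% of all genes were. The sums of 4 platelet markers were 333 to 1267 for ZsG plus, 2250 to 3454 for ZsG minus mTEC and 429 to 585 for ZsG minus cTEC.

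Summed markers of cortex and medulla followed the titles of the ZsG minus groups. The sums of 6 cortical markers were 38720 to 52620 for ZsG plus, 42200 to 59400 for ZsG minus mTEC and 168300 to 201200 for ZsG minus cTEC. Most of the sum outside ZsG minus cTEC was Ccl25, with a level of 35925 for ZsG plus, 42001 for ZsG minus mTEC and 80372 for ZsG minus cTEC. Prss16 had levels of 1173, 2963 and 48742 in that order. All 6 were lower on every ZsG plus array than on every ZsG minus cTEC array, where 13.4% of all genes were. The same held for ZsG minus mTEC, where 11.8% of all genes were. For 6 medullary markers the sums were 51250 to 61510 for ZsG plus, 55080 to 60130 for ZsG minus mTEC and 8030 to 14790 for ZsG minus cTEC. Of these 6, 4 were higher on every ZsG plus array than on every ZsG minus cTEC array, where 9.9% of all genes were. Cd80 and Tnfrsf11a overlapped. In ZsG minus mTEC 4 were also higher, where 16.6% of all genes were, and Cldn3 and Tnfrsf11a overlapped. Epithelial markers, 5 in all, were present on every array, at 195400 to 309200 for ZsG plus, 152700 to 159500 for ZsG minus mTEC and 98610 to 132400 for ZsG minus cTEC. Lamb3, Itgb1 and Dst stood highest where this sum stood lowest, and the part of epithelial content in their values was not tested. Of the 5 markers, 4 were higher on every ZsG minus mTEC array than on every ZsG minus cTEC array, where 16.6% of all genes were. Krt18 was lower on every ZsG minus mTEC array, at 60802 to 62014, than on every ZsG minus cTEC array, at 66211 to 87628, where 11.8% of all genes were lower.

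**Figure D4:**
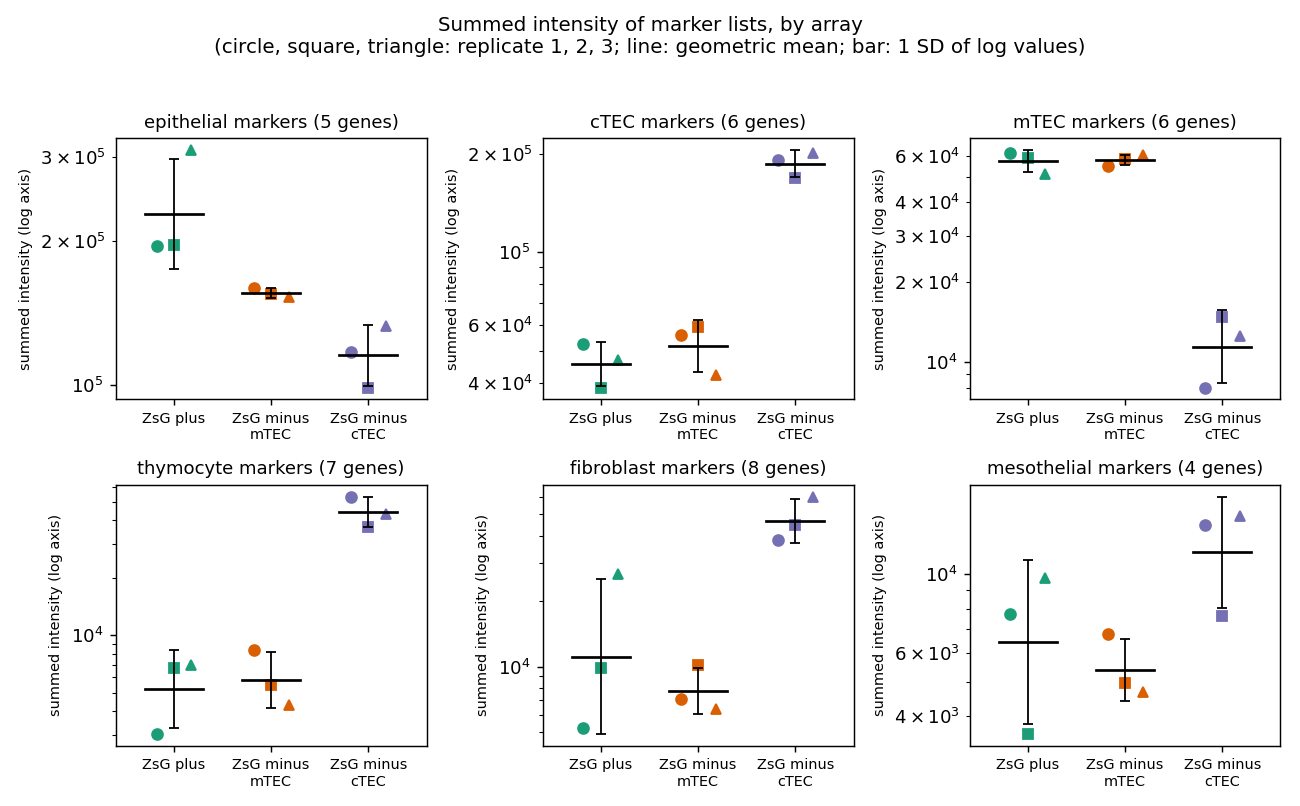
Summed intensity of 6 marker lists on a log axis, with 1 point per array, for ZsG plus, ZsG minus mTEC and ZsG minus cTEC; the line is the geometric mean and the bar 1 SD of the log values. Thymocyte and fibroblast sums are higher on all 3 ZsG minus cTEC arrays than on the other 6, and epithelial sums are lowest there.

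The genes with the pattern most like that of Itgb4 were Tulp3, Thbs2 and Tmc5. Likeness was the root mean square difference of log2 values, each gene centred on its own mean over the 9 arrays, among 12153 genes with a level over 100 in every group, and was 0.30, 0.46 and 0.49. Tulp3, the closest, read 1268, 212 and 367 in the ZsG plus replicates, 1344, 2068 and 988 in the ZsG minus mTEC replicates and 2711, 1084 and 3171 in the ZsG minus cTEC replicates. Nearest to Lamb3 were Trpm2, Mx1 and Siva1, at 0.56, 0.56 and 0.60. All genes of an array share its RNA and scaling, and these likenesses are descriptions without a test.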

How the data were processed

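RNA from 9 samples was amplified from 5 ng and labelled with biotin, per the labels' protocols. The authors deposited linear intensity values for 45101 probe sets on each array. The labels name no software for them. Each array had a mean intensity of 1250 once 2% of values was removed at either end, so the authors had scaled the arrays to 1 trimmed mean. No 2 arrays held identical values. Precision is limited by the number of arrays.

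All deposited intensities were converted to log2 without an offset. Gene names came from the platform annotation table, where 34958 probe sets had 1 symbol, 932 several and 9211 none. Only probe sets with 1 symbol were used, and the one with the highest mean log2 value over the 9 arrays stood for its gene, which left 18194 genes. The test was limma 3.58.1 (lmFit and eBayes, R 4.3.3), fitted to all 9 arrays with 1 coefficient per group. Residual degrees of freedom were 6 and prior degrees of freedom 3.28. All tests were two-sided, with adjustment by Benjamini-Hochberg over all genes, or over all probe sets with 1 symbol where single probe sets are given. Errors after ± are standard errors of the fit, and a level is the geometric mean of 3 arrays. On simulated data the fit recovered the sizes of known changes. With 1 spread shared by all groups, drawn from the fit's own model, few unchanged genes were called. With each group given its own spread, as estimated from its 3 arrays, unchanged genes were called more often than the threshold allows. Adjusted p-values in comparisons with ZsG plus may therefore be too small. Only ZsG plus against ZsG minus cTEC was simulated. An SD from 3 arrays is itself uncertain, so the simulated spreads may differ more between groups than the true ones.

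The 9 genes and the lists of related genes and markers were chosen with earlier results of these data known. Genes named outside the 9 are those past the threshold and the 2 brightest of each list of related genes; Col17a1 was added after its values were seen. Alternatives were the choice of probe set, a filter on dim genes, a lower limit of 100, quantile normalization, median centring, a fit of 6 arrays, array weights, the replicate number as a block and leaving out each array. Promoter sequences came from RefSeq, build GRCm38.p6. Figures were drawn with matplotlib 3.10.9.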

Additional observations from a re-analysis of the deposited data

How the results depend on the processing

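The count of the 9 genes past the limma threshold was 0 in each comparison. Between ZsG plus and ZsG minus mTEC it stayed at 0 under every alternative run. Between ZsG plus and ZsG minus cTEC it was 1 with the mean of a gene's probe sets, 1 with values under 100 set to 100 (Dst in both) and 0 to 1 on leaving out 1 array (Lamb3, without ZsG plus replicate 2). Between ZsG minus mTEC and ZsG minus cTEC it was 1 in the fit of only those 6 arrays (Lamb3). With the replicate number as a block it was 0 in each comparison; the block left 0, 16 and 0 of the 40, 317 and 114 genes called over all genes in the order ZsG plus against ZsG minus mTEC, ZsG plus against ZsG minus cTEC, and ZsG minus mTEC against ZsG minus cTEC. Over all alternatives those counts ran from 0 to 230, from 0 to 862 and from 0 to 1220, and the cause was not tested. On leaving out 1 array they ran from 0 to 230, from 0 to 735 and from 0 to 304. Replicates that share a number did not deviate together: over 9 such pairs the correlation across genes of deviations from the group means ran from −0.015 to 0.013, so the numbers were not taken to pair samples. Calls higher and lower, 3 and 37 in the first comparison, became 7 and 17 with quantile normalization and 1 and 2 with median centring; 109 and 208 in the second became 111 and 115, and 158 and 113. With the mean of a gene's probe sets, the sign turned between ZsG plus and ZsG minus mTEC for Itga6 (−0.19) and Lama3 (−0.98), and for Itga3 (0.33) in ZsG plus against ZsG minus cTEC. It also turned for Itga6 with quantile normalization (−0.031), for Itgb1 with centring (0.33) and for Plec with array weights (−0.019), all between ZsG plus and ZsG minus mTEC, and for Itga3 with centring between ZsG plus and ZsG minus cTEC (0.018). On leaving out 1 array the log2 difference between ZsG plus and ZsG minus mTEC ran from −2.33 to 0.032 for Itga2, from −2.85 to 0.24 for Lamb3, from −0.26 to 0.32 for Plec and from −0.21 to 0.94 for Itgb8. For ZsG plus against ZsG minus cTEC it ran from −1.58 to 0.59 for Itga2 and from −0.90 to 0.14 for Itga3. Between ZsG minus mTEC and ZsG minus cTEC it ran from −0.60 to 1.69 for Itga2, from −0.39 to 0.96 for Itga3 and from −0.79 to 0.15 for Itgb4. Against ZsG minus cTEC, Lamb3, Itgb1 and Dst stayed below 0 under every alternative for both ZsG plus and ZsG minus mTEC, but with the mean of a gene's probe sets Itgb1 in ZsG minus mTEC moved to −0.15 (and Lama3 to −0.45). Itga2 was left out with the dimmest 40% of genes. Signal near the bacterial controls limits Itga2 throughout, and Itgb4, Lamb3, the dimmer Lama3 probe set and some Itgb1 and Dst probe sets in ZsG plus.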
